A study of Homo sapiens with 6 samples.

Results

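The 50 genes described here encode proteins of the kinetochore, the spindle and the entry into and exit from mitosis. They were chosen by name, from a list of mitotic genes, with earlier results of these data known. They are 50 of the 35052 genes to which reads could be assigned. All 50 passed the filter on low counts and were among the 12954 genes tested. They fall into 8 subgroups by role: 20 kinetochore and centromere proteins, 7 kinases, 3 partners of the chromosomal passenger complex, 6 genes of CDK1, its cyclins and their activators, 4 of the spindle checkpoint and the anaphase-promoting complex, 4 kinesin motors, 4 spindle-associated proteins and 2 chromosome proteins.

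EoL-1, a human cell line established from eosinophilic leukaemia, was the source of all libraries, which were sequenced as polyA RNA. One group of 3 libraries is labelled JUN knockout and the other group of 3 is labelled ATF3/JUN double knockout, so cells of both groups lack JUN by label and the comparison addresses what the further loss of ATF3 adds. Both factors belong to the AP-1 and ATF family of leucine zipper proteins that bind DNA as dimers. The sources used here give neither guides nor edited alleles, and unedited cells were not analysed here. Libraries with the same number in both groups carry the same code in their file names, and these are called pairs below. If those codes name lines, which the labels do not state, the libraries of a group come from different lines. Whether they were otherwise separate cultures is not labelled, so a p-value here speaks only of how these libraries spread.

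The 6 libraries held 26146998 to 29567970 estimated reads. A member had 90 to 20837 of these in a library. ATF3 mRNA was at 20.2, 13.7 and 8.89 CPM (read counts scaled to a common library size) in the JUN knockout and 13.1, 10.0 and 7.63 CPM in the double knockout, and JUN mRNA at 13.2, 27.2 and 24.6 against 13.8, 16.6 and 25.7 CPM. Both genes overlapped between groups, while ATF3 was lower in 3 of 3 pairs and JUN in 1 of 3. For ATF3, edgeR gave −0.48 on the log2 scale, with an unadjusted p that was not under 0.05. With the pairs as a block it gave −0.44 (SE 0.13, unadjusted p = 0.00988, adjusted p = 0.394). Neither gene passed the test, and mRNA levels need not report an edit of the coding sequence. Of 10 eosinophil-lineage genes, EPX, CLC, IL5RA and GATA1 had no reads in any library and PRG2, CCR3, SIGLEC8 and CEBPE stayed below 1 CPM. RNASE2 was at 30.3 to 95.7 CPM and RNASE3 at 5.25 to 17.2 CPM, so most of these 10 genes were absent or near 0 in both groups.

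A dividing cell attaches its chromosomes to spindle microtubules at the kinetochore, a protein assembly built on the centromere. CDK1 with its cyclins drives entry into mitosis, Polo-like and Aurora kinases order its steps, and the spindle checkpoint holds back the anaphase-promoting complex until every kinetochore is attached. Many of the genes involved are transcribed mainly in the G2 and M phases, so in a bulk sample fewer cells in those phases and less RNA per cell cannot be told apart.

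In the double knockout, 45 of the 50 mitotic genes lay below 0 on the log2 fold change scale (median −0.16). Over all tested genes the share below 0 was 49.3% and the median 0.00. The members ran from −1.75 for SKA1 to 0.11 for CENPH. For 18 members all 3 double knockout libraries lay below all 3 JUN knockout libraries, which held for 5.91% of all tested genes, and for 0 members did they all lie above (6.33% of all genes). No member passed edgeR's quasi-likelihood test, in which 0.0% of all genes were called. At an unadjusted p under 0.05 there were 14 members on the lower side (2.89% of all genes) and 0 on the higher side (2.93% of all genes), and the lowest adjusted p of a member was 0.546. DESeq2 called 3 members, SKA1, ZWINT and PLK1, and 0.548% of all genes. With limma-voom 0 members and 0.0309% of all genes passed.

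**Figure D1:**
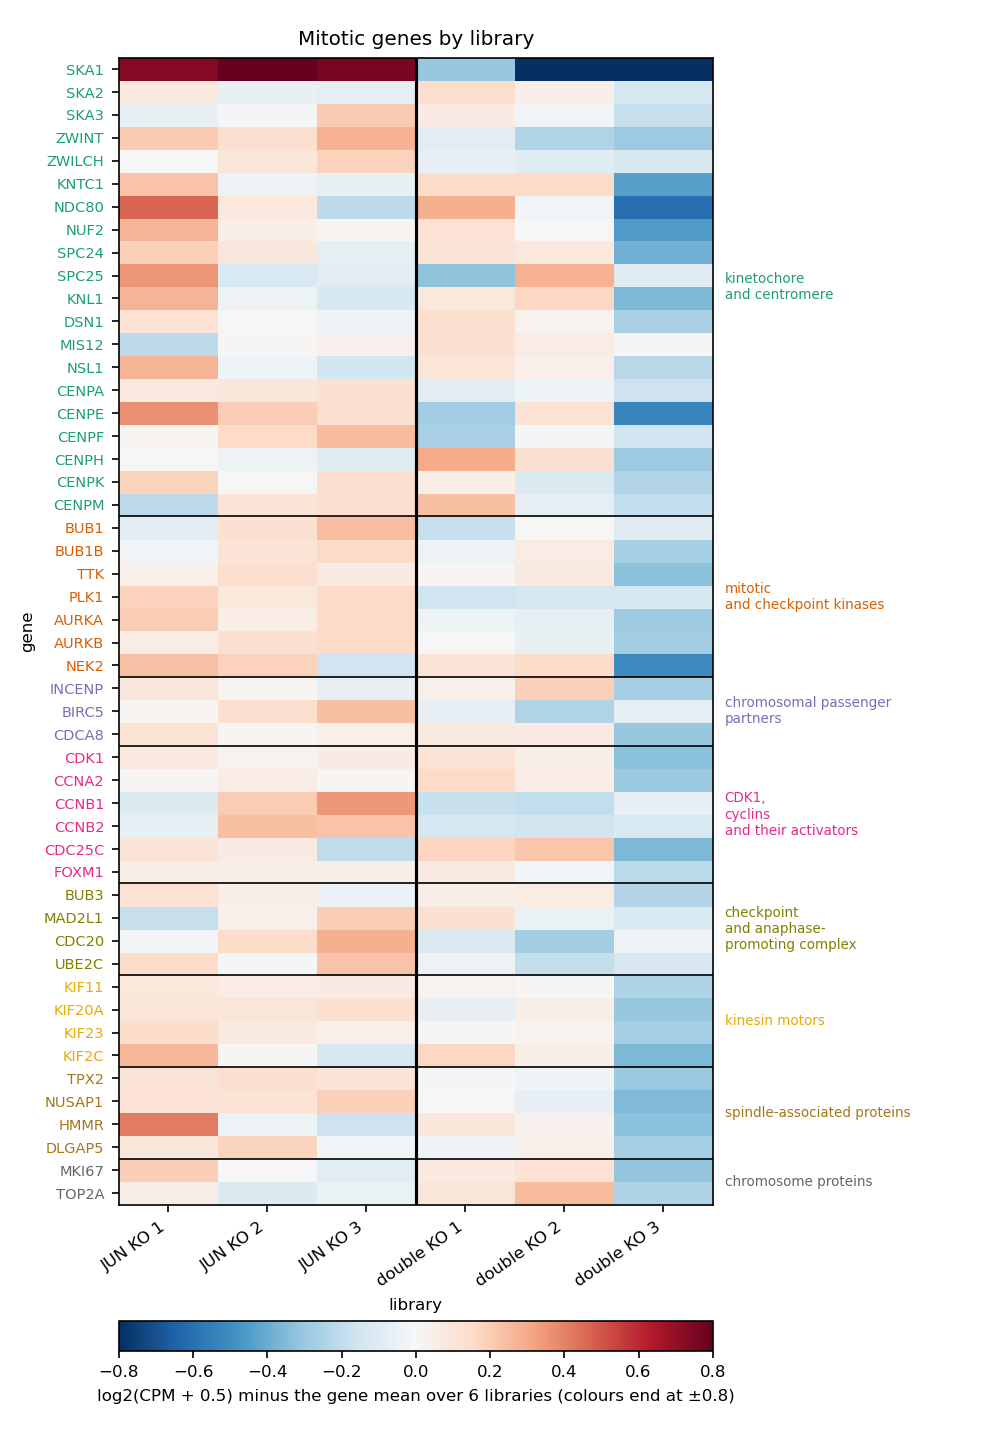
Each row is 1 of the 50 mitotic genes, grouped by role, and each column is a library; the colour gives log2(CPM + 0.5) minus the gene's mean over the 6 libraries. Double knockout replicate 3 is the lowest library for 38 of the 50 genes, and SKA1 has the widest range.

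1 library carried much of this difference. Double knockout replicate 3 was the lowest of the 6 libraries for 38 of the 50 genes, and double knockout replicates 1 and 2 were the lowest for 4 and 5. In pair 3 all 50 members had a lower level in the double knockout library, with a median log2 ratio of −0.32. In pairs 1 and 2 the counts were 38 and 32, with medians of −0.09 and −0.06. Without double knockout replicate 3, 30 of the 50 lay below 0, and the median was −0.05 against 0.00 for all genes. At an unadjusted p under 0.05 in edgeR there were then 5 members on the lower side and 1 on the higher side. Over all genes it was 965 of 13133 on both sides together. In that reduced set 19 members had groups that did not overlap on the lower side and 5 on the higher side, beside 12.1% of all genes on the lower side and 13.9% on the higher side. Without JUN knockout replicate 1, the highest library for 19 members, 37 of 50 lay below 0, and without both libraries of replicate 3 it was 36, with a median of −0.10.

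Lower levels in all 3 pairs were found for 28 members (15.2% of all genes), and higher levels in all 3 pairs for 0 (18.1% of all genes). The summed level of the 50 genes was 6564, 6338 and 6385 CPM in the JUN knockout and 6184, 6261 and 5108 CPM in the double knockout. The groups did not overlap, though double knockout replicates 1 and 2 lay close to the lowest JUN knockout library and replicate 3 far below. They did overlap when scaled by the library total alone (exact permutation p = 0.3), over protein-coding transcripts alone (exact permutation p = 0.3) and as summed TPM, which is scaled for transcript length (exact permutation p = 0.4). The difference of the means was −9.0% (exact two-sided permutation p = 0.1, the smallest that 6 libraries allow), and without double knockout replicate 3 it was −3.2%.

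**Figure D2:**
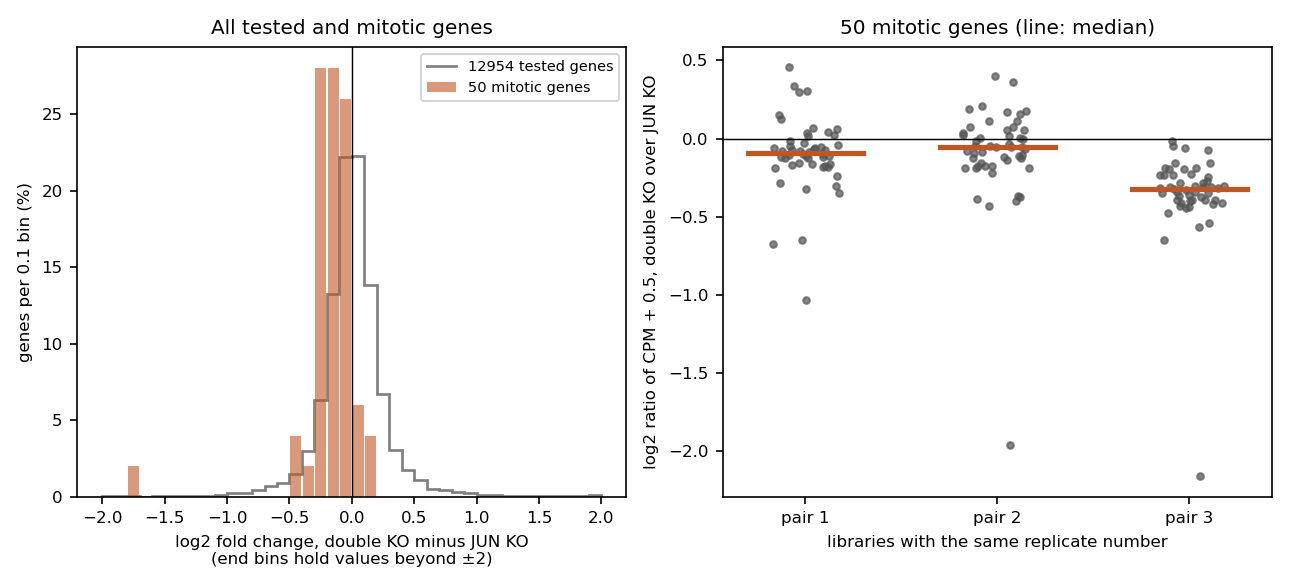
Left, the percentage of genes per bin of log2 fold change for the 12954 tested genes (line) and the 50 mitotic genes (bars); right, the log2 ratio of double knockout to JUN knockout for each mitotic gene within each pair, with the median as a line. The medians of pairs 1, 2 and 3 are −0.09, −0.06 and −0.32, and the lowest point of each pair is SKA1.

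Counted over protein-coding transcripts alone, 43 of the 50 lay below 0, with a median of −0.17 (all genes 50.6% below 0). Again no member passed edgeR (0.0% of all genes called), and 14 had an unadjusted p under 0.05 on the lower side (2.54% of all genes). Between the 2 ways of counting, KNL1 went from −0.06 to 0.04 and DSN1 from −0.06 to 0.03, while ZWINT went from −0.41 to −0.09.

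**Figure D3:**
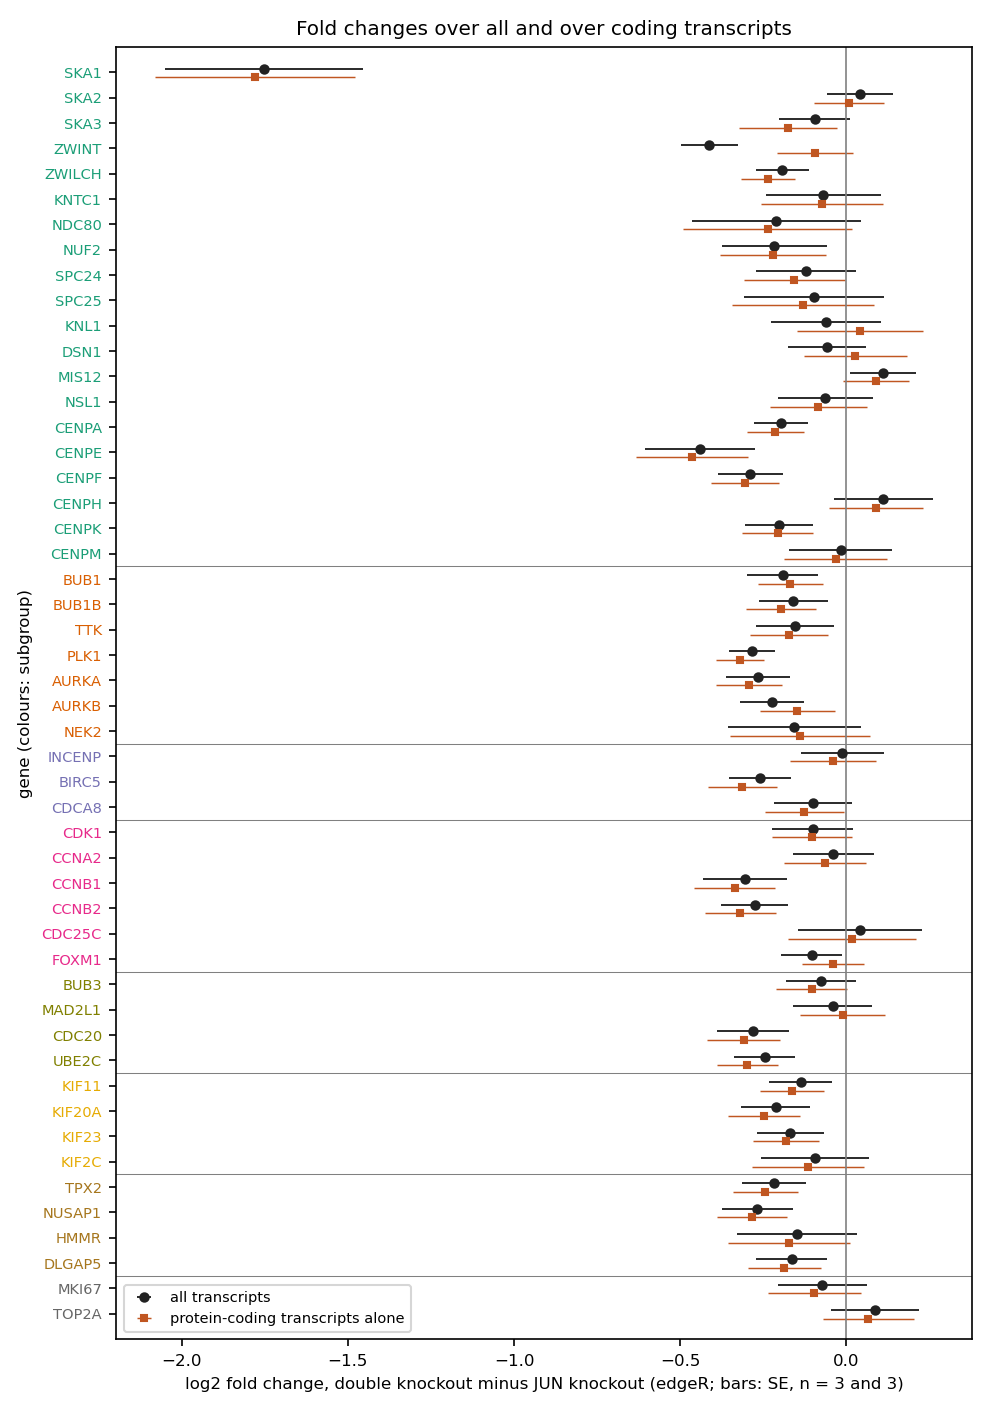
Log2 fold changes of the 50 genes, double knockout minus JUN knockout, with edgeR's standard error (3 libraries a group), over all transcripts (circles) and over protein-coding transcripts alone (squares). SKA1 stands lowest at −1.75 and −1.78, and ZWINT shows the widest gap between the 2 ways of counting, −0.41 and −0.09.

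Among the 20 kinetochore and centromere genes, 17 lay below 0, with a median log2 fold change of −0.11. Groups did not overlap for 6, all on the lower side, beside 5.91% of all genes on that side. SKA1 encodes a subunit of the Ska complex, which couples kinetochores to microtubules. Its level was 15.7, 20.1 and 16.0 CPM in the JUN knockout libraries and 7.39, 4.80 and 3.19 CPM in those of the double knockout. In CPM, which is not scaled for transcript length, the highest double knockout library was under 50% of the lowest JUN knockout library. On the log2 scale the difference was −1.75 (SE 0.30), with an adjusted p of 0.546 in edgeR and 3.65e-05 in DESeq2. With an offset for transcript length it was −0.72. In TPM, SKA1 was at 10.3 ± 2.11 in the JUN knockout and 6.24 ± 2.53 in the double knockout (SD, n = 3 each). On that scale its groups overlapped. The other Ska subunits did not share the difference in reads: SKA2 had a log2 fold change of 0.04 (SE 0.10) and SKA3 one of −0.10 (SE 0.11).

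SKA1 lies on chromosome 18 at 50374995 to 50394173, plus strand (GRCh38). Reads fell on a long transcript, SKA1-201, which has 1926 bases after its stop codon, and on a short one, SKA1-202, which ends at the stop codon. Salmon assigned the long one 220, 458 and 312 reads in the JUN knockout libraries and 0, 0 and 0 in the double knockout. The short one had 199, 90 and 93 against 180, 123 and 76. By these estimates the gene's difference lay in the long transcript, at least 107-fold lower when the double knockout libraries are set at a floor of 3 reads each, while the short transcript overlapped between groups. Whether reads were lost from SKA1-201 or assigned elsewhere was not tested. Salmon also set transcripts of members to 0 in single libraries within a group: AURKA-203 had 0, 1047 and 0 reads in the JUN knockout and 588, 0 and 0 in the double knockout. Per transcript, edgeR gave SKA1-201 an adjusted p of 0.178 and called 0.0% of 49298 transcripts, while DESeq2 called it among 1.6% of them. A switch of this kind was rare in either direction, counted over 30279 transcripts with at least 50 reads in 3 or more of the 6 libraries. Of these, 0.112% had 50 or more reads in each JUN knockout library and under 1 in each double knockout library. The reverse held for 0.109%.

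The outer kinetochore and corona gene ZWINT, whose product binds KNL1 and helps to recruit the RZZ complex, was at 183, 173 and 192 CPM in the JUN knockout and 149, 134 and 129 CPM in the double knockout. All double knockout libraries lay below the others. The difference was −0.41 on the log2 scale (SE 0.09, edgeR adjusted p = 0.636, DESeq2 adjusted p = 0.0080), and its split by transcript is given further down. ZWILCH, a subunit of RZZ, was at 56.4, 60.0 and 63.8 against 53.7, 52.5 and 51.4 CPM. These groups lay close without touching, and the log2 fold change was −0.19 (SE 0.08). KNTC1, another RZZ subunit, overlapped between groups (−0.07, SE 0.17).

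CENPE, a kinesin that carries chromosomes to the spindle equator, was at 194, 173 and 164 CPM in the JUN knockout and 124, 163 and 105 CPM in the double knockout. Double knockout replicate 2 came close to the lowest JUN knockout library without reaching it. The log2 fold change was −0.44 (SE 0.17). CENPF, a large protein of the outer kinetochore and the most abundant of the 20 by reads, was at 397, 436 and 465 against 326, 386 and 350 CPM, with a log2 fold change of −0.29 (SE 0.10). CENPA, the histone H3 variant that marks the centromere, was at 35.1, 35.3 and 36.1 against 31.1, 32.3 and 29.5 CPM (−0.20, SE 0.08). The groups of both did not overlap.

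In the microtubule-binding NDC80 complex the groups of each gene overlapped. NDC80, NUF2, SPC24 and SPC25 had log2 fold changes of −0.21, −0.22, −0.12 and −0.10, and the first 3 were lower in 3 of 3 pairs. With the pairs as a block, edgeR gave −0.23, −0.23, −0.13 and −0.10 (SE 0.09, 0.10, 0.09 and 0.21). The unadjusted p of that fit was 0.0341, 0.0533, 0.179 and 0.650, and the adjusted p ran from 0.489 to 0.902. NDC80, singled out after its values were seen, was at 86.8, 66.5 and 54.2 CPM in the JUN knockout and 76.4, 61.8 and 41.2 CPM in the double knockout, so the range within each group was wider than the difference of any pair. Of the MIS12 complex and its neighbours, MIS12 was at 0.11 and DSN1 and NSL1 at −0.06 each. The inner kinetochore genes CENPH, CENPK and CENPM were at 0.11, −0.20 and −0.02.

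All 7 kinases lay below 0, with a median log2 fold change of −0.19, and each of the 7 was lower in 3 of 3 pairs. Without double knockout replicate 3, 6 of 7 stayed below 0, with a median of −0.14. PLK1, the Polo-like kinase of mitotic entry and spindle assembly, was at 143, 133 and 139 CPM in the JUN knockout and 112, 114 and 115 CPM in the double knockout. The double knockout libraries lay close together and all below the others. The difference was −0.28 on the log2 scale (SE 0.07, edgeR adjusted p = 0.716, DESeq2 adjusted p = 0.0212). AURKA, the Aurora kinase of the spindle poles, was at 71.4, 64.5 and 69.1 against 60.5, 59.3 and 50.7 CPM (−0.27, SE 0.10). AURKB, the catalytic subunit of the chromosomal passenger complex, was at 69.6, 73.1 and 74.4 against 67.0, 64.1 and 55.0 CPM (−0.22, SE 0.10; −0.14 without double knockout replicate 3).

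The checkpoint kinases BUB1, BUB1B and TTK had log2 fold changes of −0.19, −0.16 and −0.15, and NEK2, a centrosome kinase, one of −0.16, all with overlapping groups. BUB1B, the most abundant kinase gene by reads, was at 132, 144 and 149 CPM in the JUN knockout and 130, 139 and 111 CPM in the double knockout. Its overlap came from JUN knockout replicate 1. Leaving out double knockout replicate 3 gave −0.07. The summed level of the 7 kinases was 657, 681 and 699 against 598, 626 and 540 CPM, which did not overlap (−13%, exact permutation p = 0.1).

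The 3 partners of AURKB in the chromosomal passenger complex differed from each other. BIRC5, which encodes survivin, was at 117, 127 and 137 CPM in the JUN knockout and 111, 98.0 and 109 CPM in the double knockout, without overlap (−0.26, SE 0.09). INCENP, the scaffold, and CDCA8, which encodes borealin, had log2 fold changes of −0.01 and −0.10 and overlapping groups.

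Within the CDK1 group the B-type cyclins stood below the other members. CCNB2 was at 84.3, 104 and 103 CPM in the JUN knockout and 80.3, 79.8 and 81.2 CPM in the double knockout. The groups did not overlap, and the double knockout libraries lay close together (−0.28, SE 0.10). CCNB1, named here after its values were seen, was at 117, 146 and 161 against 112, 110 and 121 CPM. It overlapped through JUN knockout replicate 1, with a log2 fold change of −0.30 (SE 0.13), or −0.20 without JUN knockout replicate 3.

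CCNA2, the A-type cyclin of S and G2 phase and the most abundant of the 6 by reads, was at 231, 240 and 232 CPM in the JUN knockout and 257, 240 and 188 CPM in the double knockout. The double knockout libraries spanned the whole range (−0.04, SE 0.12). CDK1, the kinase itself, was at 137, 133 and 136 against 140, 134 and 104 CPM (−0.10, SE 0.12). For both genes double knockout replicate 1 was the highest library and replicate 3 the lowest. Without replicate 3 the log2 fold changes were 0.08 and 0.02. FOXM1, the transcription factor that activates many G2 and M genes, was at 112, 113 and 112 against 114, 107 and 93.1 CPM (−0.10, SE 0.09; −0.03 without double knockout replicate 3). CDC25C, a phosphatase that activates CDK1, was at 0.04 (SE 0.19).

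CDC20, the activator of the anaphase-promoting complex at anaphase, was at 95.2, 107 and 117 CPM in the JUN knockout and 88.8, 79.1 and 94.3 CPM in the double knockout. UBE2C, the ubiquitin-conjugating enzyme of that complex, was at 102, 91.1 and 108 against 89.3, 80.7 and 83.9 CPM. Neither gene overlapped between groups, though the margins were narrow, and the log2 fold changes were −0.28 (SE 0.11) and −0.25 (SE 0.09). In both, replicate 3 was not the lowest double knockout library. The checkpoint genes BUB3 and MAD2L1 overlapped, at −0.08 (SE 0.11) and −0.04 (SE 0.12). BUB3, the most abundant of the 4 by reads, was at 301, 288 and 268 against 288, 289 and 236 CPM.

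The kinesin motors were lower by small steps. KIF11, which pushes spindle poles apart, was at 184, 181 and 181 CPM in the JUN knockout and 176, 174 and 146 CPM in the double knockout. KIF20A, a motor of cytokinesis, was at 58.4, 58.4 and 59.9 against 52.0, 56.3 and 44.1 CPM. KIF23, of the central spindle, was at 81.6, 77.5 and 75.8 against 72.9, 75.1 and 61.0 CPM. The groups of all 3 did not overlap, beside 5.91% of all genes apart on the lower side. In each of the 3 the lowest value was that of double knockout replicate 3. The log2 fold changes were −0.14 (SE 0.09), −0.21 (SE 0.10) and −0.17 (SE 0.10), and none had an unadjusted p under 0.05. Without double knockout replicate 3 they were −0.05, −0.12 and −0.08. KIF2C, which depolymerises microtubules at kinetochores, overlapped (−0.09, SE 0.16).

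KIF20A also showed a transcript at 0 in all double knockout libraries. KIF20A-205 was assigned 432, 284 and 548 reads in the JUN knockout libraries and 0, 0 and 0 in the double knockout, while KIF20A-201 had 1104, 1300 and 938 against 1272, 1421 and 1189. The first was at least 139-fold lower at the floor of 3 reads per library, and the second overlapped, at 0.29 on the log2 scale (SE 0.15). Loss of KIF20A-205 and assignment of its reads to KIF20A-201 cannot be told apart from these estimates.

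All 4 spindle-associated genes lay below 0, with a median log2 fold change of −0.19. TPX2, which activates AURKA on the spindle, was at 220, 225 and 220 CPM in the JUN knockout and 204, 201 and 167 CPM in the double knockout (−0.22, SE 0.10). NUSAP1, a microtubule-binding protein, was at 136, 136 and 143 against 126, 120 and 98.2 CPM (−0.27, SE 0.11). Both had groups that did not overlap, with replicate 3 lowest. Without it they were at −0.13 and −0.17. HMMR and DLGAP5 overlapped, at −0.15 and −0.16.

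The 2 chromosome proteins gave the highest read counts, and both overlapped between groups. TOP2A, the DNA topoisomerase that untangles sister chromatids, was at 688, 614 and 638 CPM in the JUN knockout and 709, 790 and 558 CPM in the double knockout. Its double knockout libraries included both the highest and the lowest of the 6. The log2 fold change was 0.08 (SE 0.13), −0.02 with a transcript length offset and 0.21 without double knockout replicate 3. MKI67, the proliferation marker Ki-67, was at 690, 605 and 569 against 635, 653 and 485 CPM (−0.07, SE 0.13). Per transcript length the order differed from that of the reads: UBE2C was highest among the 50 in the JUN knockout, at 194 ± 20.2 TPM (SD, n = 3; transcript abundance scaled for length), and BUB3 in the double knockout, at 189 ± 26.4 TPM (SD, n = 3). UBE2C was at 167 ± 9.95 TPM in the double knockout (SD, n = 3), BUB3 at 191 ± 30.9 TPM in the JUN knockout (SD, n = 3), and MKI67 was at 63.0 and 58.0 TPM.

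Side by side, the subgroup medians of the log2 fold change were −0.11 for the kinetochore, −0.19 for the kinases, −0.15 for the motors, −0.10 for the passenger partners, −0.10 for CDK1 and the cyclins, −0.16 for the checkpoint and anaphase-promoting complex, −0.19 for the spindle and 0.01 for the chromosome proteins. Differences between subgroups were not tested. Without double knockout replicate 3 these medians, in the same order, were −0.02, −0.14, −0.07, 0.01, 0.00, −0.11, −0.10 and 0.13. Each of the 8 was higher without that library, and those of the passenger partners and the chromosome proteins were then above 0.

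Other genes of mitosis, in 5 lists of 86 genes in all, showed values of the same order. These lists too were chosen with earlier results of these data known. Of these 86, 70 lay below 0 (median log2 fold change −0.11), against 49.3% of all genes. Groups were apart on the lower side for 14 (5.91% of all genes) and on the higher side for 0 (6.33% of all genes). Without double knockout replicate 3, 51 of 86 lay below 0. The genes with the lowest p in these lists were PSRC1, a spindle protein (−0.55, SE 0.10, DESeq2 adjusted p = 0.0049), SPDL1, which recruits dynein to kinetochores (−0.40, SE 0.09), PTTG1, which encodes securin (−0.33, SE 0.09), MASTL, a kinase that protects CDK1 substrates (−0.28, SE 0.13), and NCAPH2, of condensin II (−0.19, SE 0.12). Among the most abundant by reads were UBE2S (−0.23), CKAP5 (−0.06), SMC4 (−0.07) and MELK (−0.15). Without double knockout replicate 3, MASTL was at −0.16, NCAPH2 at −0.08 and MELK at −0.02.

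Genes of DNA replication and the G1/S transition lay closer to 0. Of 28, 23 were below 0, with a median log2 fold change of −0.07. Without double knockout replicate 3, 16 of 28 were below 0, with a median of −0.01. Only 1 of the 28 had groups apart, on the lower side (3.57%, beside 5.91% of all genes). That gene was POLE, the catalytic subunit of DNA polymerase epsilon (−0.31, SE 0.07, DESeq2 adjusted p = 0.0069), and the most abundant, MCM4, was at 0.01. The pairs disagreed here: 4, 21 and 28 of the 28 were lower in pairs 1, 2 and 3. Among 12 genes of the MuvB, B-Myb and DREAM complexes, which control cell cycle promoters, 9 lay below 0 (median −0.04), with LIN37 at −0.20 and RBBP4 at −0.02. Of the 3 subunits of NF-Y, which binds CCAAT, NFYC was at −0.15 and NFYA at 0.08. No gene of these 3 lists passed edgeR.

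The promoters of mitotic genes share short elements that are known as background for this class: CCAAT, bound by NF-Y, and the cell cycle genes homology region, TTTGAA or TTCGAA, bound through the MuvB complex. Of the 50 members, 39 were in the RefSeq promoter table (GRCh38.p14), whose windows run from 250 bases before to 50 after a start. CCAAT on either strand was found in a window of 30 of the 39, and TTTGAA or TTCGAA on either strand in 25. Both were found in 20, which is 51.3%, against 6.78% of tested genes with a window and 7.85% of all genes. Counted per window rather than per gene, both were in 23 of 46 windows of members and in 6.38% of all windows. In the shorter stretch from 100 bases before to 50 after, 17 of 39 held both, against 2.34% of all genes.

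The stretches below show this arrangement in the 8 named members that hold both elements in the 150 bases before the start. Each is written 5′ to 3′ on the gene's strand and ends at the base before the start, with the elements in capitals (ATTGG and TTCAAA are CCAAT and TTTGAA on the other strand).
PLK1, chr16:23678739-23678888, plus strand: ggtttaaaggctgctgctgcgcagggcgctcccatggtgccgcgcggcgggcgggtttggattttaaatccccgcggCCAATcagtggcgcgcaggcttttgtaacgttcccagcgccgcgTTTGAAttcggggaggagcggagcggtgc
CCNB2, chr15:59104996-59105145, plus strand: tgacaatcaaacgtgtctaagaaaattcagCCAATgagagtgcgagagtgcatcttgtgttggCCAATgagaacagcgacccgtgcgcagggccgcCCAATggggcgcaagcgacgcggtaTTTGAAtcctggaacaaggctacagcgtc
CDC20, chr1:43358831-43358980, plus strand: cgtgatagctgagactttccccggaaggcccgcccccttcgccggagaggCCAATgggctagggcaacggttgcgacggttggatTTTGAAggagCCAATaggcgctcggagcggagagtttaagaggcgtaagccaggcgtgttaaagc
KIF23, chr15:69414199-69414348, plus strand: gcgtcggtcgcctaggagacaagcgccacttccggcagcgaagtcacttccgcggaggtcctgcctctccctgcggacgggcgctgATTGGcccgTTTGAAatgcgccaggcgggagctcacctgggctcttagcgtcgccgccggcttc
KIF11, chr10:92592980-92593129, plus strand: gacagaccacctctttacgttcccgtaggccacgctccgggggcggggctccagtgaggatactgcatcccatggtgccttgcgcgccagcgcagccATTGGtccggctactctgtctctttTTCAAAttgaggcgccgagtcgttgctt
CENPA, chr2:26785906-26786055, plus strand: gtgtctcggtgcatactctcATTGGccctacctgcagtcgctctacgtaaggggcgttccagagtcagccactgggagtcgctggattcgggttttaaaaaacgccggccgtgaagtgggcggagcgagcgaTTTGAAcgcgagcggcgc
ZWINT, chr10:56361260-56361409, minus strand: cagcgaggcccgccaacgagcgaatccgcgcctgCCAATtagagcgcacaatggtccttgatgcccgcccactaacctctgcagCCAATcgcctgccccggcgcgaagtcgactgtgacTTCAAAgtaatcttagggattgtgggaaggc
CDK1, chr10:60778328-60778477, plus strand: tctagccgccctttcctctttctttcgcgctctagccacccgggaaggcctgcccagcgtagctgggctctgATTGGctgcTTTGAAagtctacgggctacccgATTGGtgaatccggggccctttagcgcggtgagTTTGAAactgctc

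In PLK1 and CCNB2 the TTTGAA begins 29 bases before the start, in KIF11 28, in KIF23 55 and in CDC20 65. CCNB2 has 3 CCAAT elements, all upstream of its TTTGAA, and PLK1 has 1. Whether the elements go with the size of the difference was not tested. For the 20 members with both, the median was −0.16 on the log2 scale and 9 had groups apart. In this paragraph groups apart are all on the lower side, where 5.91% of all tested genes were. For the 19 without both, the median was −0.16 and 5 had groups apart. Groups were apart in 12 of 30 members with CCAAT and 2 of 9 without it, and in 10 of 25 with TTTGAA or TTCGAA and 4 of 14 without. The medians lay close in these splits too: −0.16 with CCAAT and −0.16 without, −0.16 with TTTGAA or TTCGAA and −0.14 without. CDK1, printed above with 2 TTTGAA elements, was among the genes whose groups overlapped. A match of letters is a description of the window and does not show binding in these cells.

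Transcripts that are not annotated protein-coding took a smaller share of the members' reads in the double knockout: 8.14%, 8.59% and 8.80% in the JUN knockout and 7.38%, 6.97% and 8.13% in the double knockout (exact permutation p = 0.1). The highest double knockout library lay just below the lowest JUN knockout library. The same share over all genes was 13.6 ± 0.068% and 12.7 ± 0.222% (SD, n = 3 each), so the members were not alone in this.

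The shift lay in transcripts annotated as retaining an intron. They held 3.28%, 3.49% and 3.28% of member reads in the JUN knockout and 2.22%, 2.52% and 2.69% in the double knockout, groups that were clearly apart (exact permutation p = 0.1). Without ZWINT the shares were 2.40%, 2.53% and 2.42% against 1.82%, 2.03% and 2.16%. Over all genes they were 5.65%, 5.86% and 5.76% against 4.75%, 5.00% and 5.18%. Transcripts subject to nonsense-mediated decay held 3.26 ± 0.265% and 3.26 ± 0.428% of the members' reads (SD, n = 3 each). In this measure double knockout replicate 3 was not the extreme library, but the closest of its group to the JUN knockout.

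**Figure D4:**
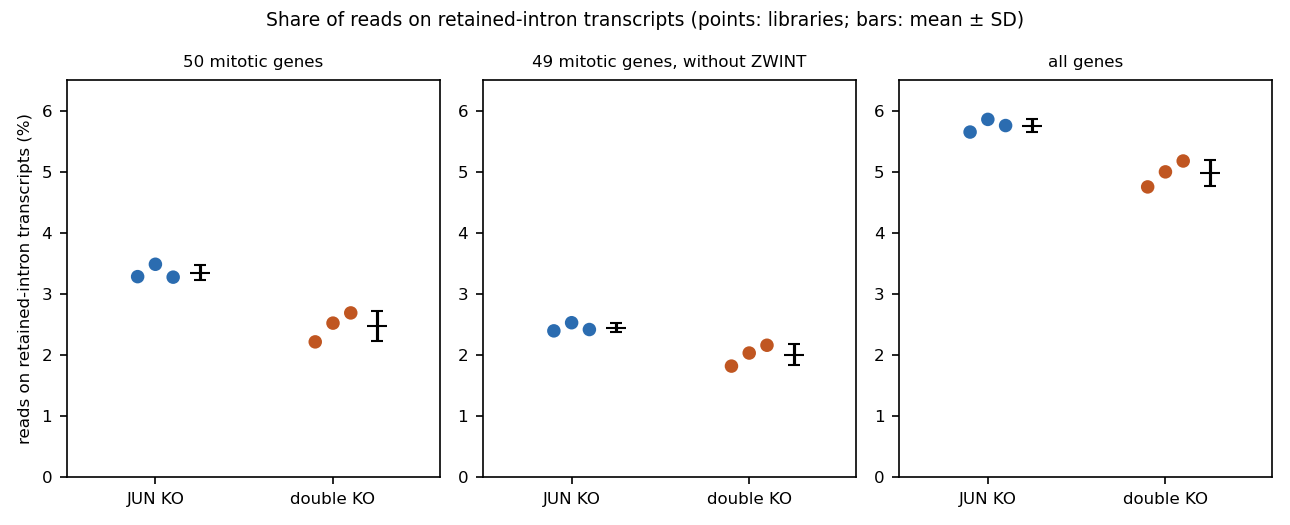
Percentage of estimated reads on retained-intron transcripts in each library (points, with mean and SD of 3 libraries beside them), for the 50 mitotic genes, for these without ZWINT and for all genes. In each panel the 3 double knockout libraries lie below the 3 JUN knockout libraries.

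Of 44 tested retained-intron transcripts of the members, 37 lay below 0 (median log2 fold change −0.40), and 12 had groups apart on the lower side. Over all 10149 such transcripts 69.9% lay below 0, with a median of −0.23, and 19.1% had groups apart on the lower side. The members' values are thus part of a difference that covers many genes. The 96 of 152 protein-coding transcripts of members below 0 compare with 43.1% of all protein-coding transcripts.

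ZWINT and FOXM1 gave the clearest cases. ZWINT-209 was assigned 1703, 1806 and 1541 reads in the JUN knockout libraries and 677, 880 and 843 in the double knockout, or −1.01 on the log2 scale (SE 0.10; edgeR adjusted p = 0.178, DESeq2 adjusted p = 8.3e-16). It held 34.2% of the gene's reads in the JUN knockout and 22.1% in the double knockout. The main coding transcript ZWINT-204 had 1120, 1240 and 1634 against 1242, 1204 and 1400, which overlapped (0.00, SE 0.17). The lower total of ZWINT therefore lay mostly in the transcript with retained introns, and over coding transcripts alone the gene was at −0.09.

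FOXM1-206 was assigned 256, 342 and 340 reads in the JUN knockout libraries and 121, 126 and 135 in the double knockout, or 10.3% and 4.61% of the gene's reads (log2 fold change −1.23, SE 0.18; edgeR adjusted p = 0.248, DESeq2 adjusted p = 2.58e-06). The double knockout libraries lay close together and well below the others. AURKB-212 had 177, 154 and 180 against 74, 87 and 110 (−0.86, SE 0.20), and BUB1-206 had 105, 127 and 106 against 56, 66 and 61 (−0.82, SE 0.20). DESeq2 called these 4 of the 44 retained-intron transcripts of members and 1.83% of all such transcripts, and edgeR called none.

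Retained introns of both genes are shown because such introns set these transcripts apart. For ZWINT-209, 1 intron is printed that 3 protein-coding transcripts of the gene remove, and for FOXM1-206 1 that 5 remove. Each was read from the GENCODE release 29 transcript (GRCh38), 5′ to 3′ on the minus strand, with the GT and AG at its ends in capitals.
ZWINT intron, chr10:56360142-56360292: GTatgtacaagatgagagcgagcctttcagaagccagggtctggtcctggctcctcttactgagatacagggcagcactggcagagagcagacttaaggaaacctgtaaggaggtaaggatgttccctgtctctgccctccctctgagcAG
FOXM1 intron, chr12:2864496-2864682: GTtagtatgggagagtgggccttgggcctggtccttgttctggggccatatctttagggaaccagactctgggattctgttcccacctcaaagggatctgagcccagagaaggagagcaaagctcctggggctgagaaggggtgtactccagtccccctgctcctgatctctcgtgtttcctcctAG

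Both introns are short, at 151 bases in ZWINT and 187 bases in FOXM1, with a GC content of 53.6% and 56.1%. Each begins with GT and ends with AG.

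**Figure D5:**
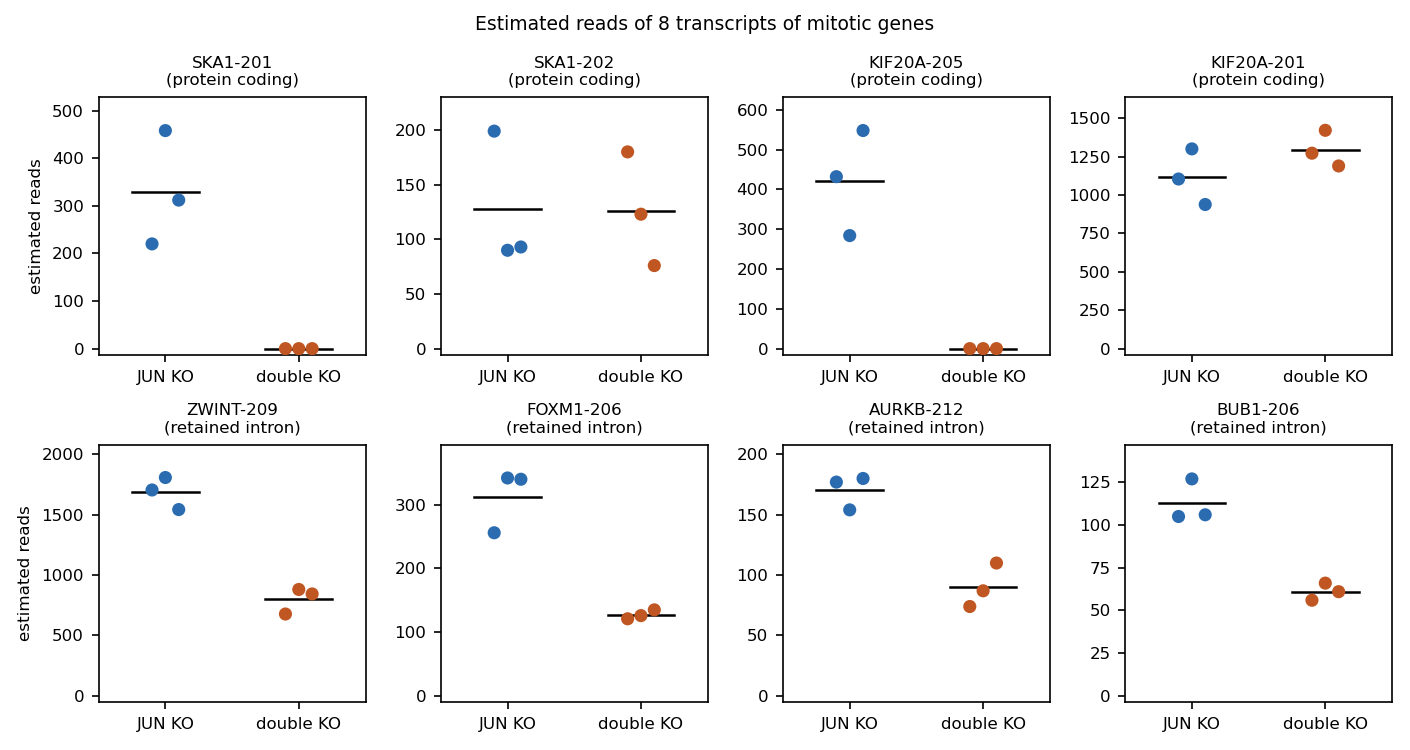
Estimated reads of 8 transcripts in each library (points; line, mean of 3), with the transcript type in brackets. SKA1-201 and KIF20A-205 are at 0 in all 3 double knockout libraries, and the 4 retained-intron transcripts in the lower panels lie lower in the double knockout without overlap.

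Other members with much of their signal outside coding transcripts differed from each other. MAD2L1 had 63.4%, 66.5% and 67.6% of its reads on such transcripts in the JUN knockout and 63.7%, 62.3% and 68.4% in the double knockout. SKA3 had 38.3%, 35.4% and 30.7% against 36.3%, 34.1% and 41.0%. Both overlapped between groups. KNL1, the kinetochore scaffold that binds ZWINT, had 24.2%, 30.1% and 27.9% against 21.5%, 18.5% and 21.2%, which did not overlap (exact permutation p = 0.1), and its decay-annotated transcript KNL1-203 had 678, 806 and 740 reads against 578, 447 and 522. DSN1, of the MIS12 complex, had 24.2 ± 6.36% and 18.2 ± 3.21% (SD, n = 3 each). CDK1 had 12.3 ± 1.09% and 10.7 ± 0.534%. The decay-annotated SKA3-205 went the other way, with 41, 49 and 67 reads in the JUN knockout and 106, 117 and 126 in the double knockout (log2 fold change 1.21, SE 0.27; edgeR adjusted p = 0.460, DESeq2 adjusted p = 0.0101).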

How the data were processed

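RNA of EoL-1 cells was measured in 3 JUN knockout and 3 ATF3/JUN double knockout libraries, as labelled. Per the labels' protocols, the ATF3 knockout was made with CRISPR/Cas9 (for JUN the sources used here give no method), and polyA RNA was prepared with a stranded mRNA kit. FastQC 0.11.9, Salmon 1.6.0 and the build hg38 are named per the submitters' processing notes. Each deposited file gives, per the file headers, the authors' estimated count and TPM (an abundance scaled for length and library) of 177456 transcripts. Salmon shares out reads that fit several transcripts, so a count for a single transcript is an estimate.

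Transcripts were matched to GENCODE release 29 by identifier (94.1% matched), and the unmatched ones, with 3.58% to 3.71% of the reads, were left out. Estimated counts were summed per gene over all transcripts, and again over protein-coding transcripts alone, and rounded to whole numbers. Totals were 26146998 to 29567970 estimated reads per library. The test was the quasi-likelihood F test of edgeR (version 4.0.16, R 4.3.3; filterByExpr, TMM scaling, two-sided), fitted to the 12954 genes kept, with Benjamini-Hochberg adjustment over all of them at 0.05. CPM is the count scaled to a common library size after TMM. Fold changes are double knockout over JUN knockout, and the SE of a log2 fold change was taken as its absolute value over the root of F. DESeq2 1.42.0 and limma-voom (limma 3.58.1) were run beside it. The edgeR fit was also run on simulated counts, drawn independently per library, with added changes larger than those of most members. These had no pairs, no outlying library and no error in read assignment, so that run does not address such features. Sums and shares per library were tested with an exact two-sided permutation over 6 libraries, which cannot give a p below 0.1.

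Same-numbered libraries were taken as pairs, because their file names share a code. It was taken to name a line, which the labels do not state. Within pairs 1, 2 and 3, deviations from group means had correlations of 0.328, 0.0958 and 0.412. Between libraries of different numbers they ran from −0.413 to 0.112. The 0.112 was for JUN knockout replicate 1 with double knockout replicate 2, so pair 2 did not stand out from unmatched libraries.

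The 50 genes, their 8 subgroups and the other lists were chosen with earlier results of these data known. The genes named are, per subgroup, the member with the lowest p, the one with the highest mean CPM and each member whose groups did not overlap, any member called by edgeR or DESeq2, and the 5 members with the most reads on transcripts not annotated protein-coding and the 5 with the largest change of that share. In each other list the gene with the lowest p and that with the highest mean CPM are named. Exceptions to this rule are marked. Of the items this rule selects, 1 gene is not reported here. Fits per transcript and the retained-intron shares were added after the data were seen.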

Additional observations from a re-analysis of the deposited data

How the results depend on the processing

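Settings were changed one at a time, except that protein-coding transcripts alone were also fitted with the replicate block (43 members below 0, median −0.17). The number of genes called was 0 in the edgeR test and became 71 with DESeq2, 4 with limma-voom and 1 without the low-count filter. It ran from 0 to 1 when a library or a pair was left out, with 1 without both libraries of replicate 3. Members called were 3 with DESeq2. Members on the lower side at an unadjusted p under 0.05 numbered 14 in the edgeR test. With the transcript length offset they numbered 6 (755 of 12954 genes on both sides together). They numbered 3 to 11 when a library or a pair was left out. The 3 came without both libraries of replicate 3 (689 of 13029 genes on both sides together). Members below 0 numbered 43 to 45 under the other fits and scalings and 30 to 47 when libraries were left out, with medians from −0.22 to −0.05. With the replicate block, pairing same-numbered libraries, 0 genes were called, 45 members lay below 0 and the median was −0.16, and no call changed.

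Some single genes changed sign. The cause was not tested. Over protein-coding transcripts alone DSN1 was at 0.0272 and KNL1 at 0.0422. With the transcript length offset KNL1 was at 0.28, RBBP4 at 0.0941, SKA3 at 0.0368 and TOP2A at −0.0192. Leaving out libraries or pairs gave log2 fold changes from −0.129 to 0.0153 for BUB3, −0.141 to 0.0845 for CCNA2, −0.185 to 0.0216 for CDK1, −0.142 to 0.0483 for DSN1, −0.509 to 0.0576 for JUN, −0.217 to 0.0843 for KNL1, −0.207 to 0.0972 for MAD2L1, −0.164 to 0.125 for MCM4, −0.0549 to 0.00133 for RBBP4, −0.206 to 0.0493 for SKA3, −0.164 to 0.0350 for SMC4 and −0.0757 to 0.213 for TOP2A. With 3 libraries a group, reads per transcript are estimates, and SKA1 rested on as few as 90 reads in a library.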
